A study of Mus musculus with 6 samples.

Results

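*Ctcflos*, listed in the deposited table under its older symbol 1300015D01Rik, and the 8 genes that flank or overlap it on chromosome 2 are described here: *Bmp7*, *Spo11*, *Rae1*, *Rbm38*, *Ctcfl*, *Pck1*, *Zbp1* and *Pmepa1*. They were chosen by symbol for their place on the chromosome and not by a measured value, though earlier results of these data were known. They make up 9 of the 52089 symbols and 49 of the 168021 transcript accessions of the table. The question was whether KD of *Ctcflos* was accompanied by changes of its neighbours. The cells were primary brite adipocytes, thermogenic fat cells grown from the stromal-vascular cells of inguinal white adipose tissue of 129SvEv mice. Both groups had gone through 2 days of induction and 1 day of differentiation, with rosiglitazone, an agonist of PPARG. In the *Ctcflos* KD group, 3 libraries came from cells transfected with 50 nM of ASO1, an LNA gapmer, that is, an antisense oligonucleotide with locked end nucleotides that directs cleavage of the RNA it binds, here transcript 1 of *Ctcflos*. In the NC ctrl group, 3 libraries came from cells with the same dose of an LNA gapmer without a target. Cells were harvested 24 h after transfection. These libraries hold a single oligonucleotide against *Ctcflos*, so loss of *Ctcflos* and other actions of ASO1 cannot be told apart. The labels do not say whether libraries of a group came from separate cultures, so that p-values measure only the spread between these libraries, which may be technical.

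Antisense lncRNAs are transcribed from the strand opposite to a protein-coding gene and can act on the chromosome they are made from, for example by their own transcription or by bringing proteins to nearby promoters. *Ctcflos* lies opposite *Ctcfl*, a testis-specific paralog of the insulator protein CTCF, and is followed on its own strand by *Pck1*, the cytosolic phosphoenolpyruvate carboxykinase. In fat cells *Pck1* feeds glyceroneogenesis, the synthesis of glycerol 3-phosphate from precursors other than glucose for the esterification of fatty acids, and it is a classical target of PPARG and of cAMP. The remaining neighbours serve unrelated processes: a BMP ligand (*Bmp7*), meiotic recombination (*Spo11*), mRNA export (*Rae1*), mRNA stability (*Rbm38*), sensing of nucleic acids in Z conformation (*Zbp1*) and inhibition of TGF-beta signalling (*Pmepa1*).

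The values are RPKM, reads scaled to transcript length and to library depth, averaged over the accessions of a symbol. The depth recovered from them was 60.8 to 75.5 mio reads in *Ctcflos* KD and 62.9 to 79.2 mio in NC ctrl. This is more than the approximate number of reads per sample that the paper states. Whether the mates of a pair were counted singly is not known, so the read numbers below may not be independent fragments. Fold changes are differences of log2(RPKM + 1), KD minus control, from limma-trend, which understate the change of weakly expressed genes, and p-values were adjusted over all genes of a fit (Benjamini-Hochberg). Among 11701 genes that averaged 1 RPKM or more, 24% were called at an adjusted p under 0.05. Among 38335 genes above 0 in at least 1 library, from whose fit members under that mean are taken, 4.71% were called. KD replicate 3 was nearest to the controls: over the 11701 genes its median absolute log2 distance from the control mean was 0.184, against 0.305 and 0.298 in KD replicates 1 and 2 and 0.0628 to 0.0815 in the controls. Of the adipocyte markers (*Fabp4*, *Adipoq*, *Plin1*, *Pparg*, *Cebpa*, *Lpl*, *Cd36*), 7 of 7 had a mean above 1 RPKM. Their summed level was 4227 to 5629 RPKM in *Ctcflos* KD and 5899 to 6556 RPKM in NC ctrl, without overlap, and 1 of 7 was called lower (*Cebpa*). All 7 had a negative fold change, and 6 of 7 were lower in KD without overlap, where 21.9% of the 11701 genes were. The sums overlapped for 6 markers of progenitors (167 to 390.1 RPKM in KD and 264 to 439.6 in NC ctrl, with *Pdgfra* called lower), 4 of macrophages (6.61 to 16.1 and 8.04 to 27.3, with *Cd68* called higher) and 4 of smooth muscle or pericytes (18.6 to 49.2 and 33.4 to 85.1, with 0 called). *Lyz2*, the most abundant of the macrophage markers, had the opposite direction to *Cd68* and was not called (limma adjusted p = 0.17). It had 1.24, 1.70 and 12.8 RPKM in KD and 7.41, 24.5 and 6.90 RPKM in NC ctrl. The 4 endothelial markers were under 1 RPKM, with sums of 0.647 to 0.922 in KD and 1.07 to 1.35 in NC ctrl. The sums mostly follow the most abundant gene of a list: *Fabp4* had a mean of 3291 RPKM in KD and 4041 in NC ctrl. Group means of the progenitor marker *Ly6a* were 281 and 346 RPKM, and those of the smooth muscle marker *Acta2* 29.4 and 51.4 RPKM. In such bulk libraries, fewer cells of a type and less RNA per cell cannot be told apart.

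The locus was read from Gencode vM21 on GRCm38, and the 9 genes span 409 kb. *Ctcflos* (chr2:173110818-173133204, plus strand) overlaps the 5′ part of *Ctcfl* (chr2:173093609-173119525, minus strand) over 8.71 kb and ends 19.8 kb before *Pck1* (chr2:173153048-173159273, plus strand). Of its 4 annotated transcripts, *Ctcflos-203* (1237 bases, 3 exons) is transcript 1, the target of ASO1. *Ctcflos-204* (3476 bases) starts 13.9 kb further downstream and shares 0 exon bases with it. The middle exon of *Ctcflos-203* runs antisense through a whole coding exon of *Ctcfl* of 171 bases, which is 13.8% of *Ctcflos-203* and 5.39% of the *Ctcfl-202* transcript of the table. That stretch is shown with 30 bases on either side (GRCm38, chr2:173113513-173113743, plus strand), with the bases shared with the *Ctcfl* exon in capitals, because a read from it belongs to both genes unless its strand is used:
Ctcflos-203: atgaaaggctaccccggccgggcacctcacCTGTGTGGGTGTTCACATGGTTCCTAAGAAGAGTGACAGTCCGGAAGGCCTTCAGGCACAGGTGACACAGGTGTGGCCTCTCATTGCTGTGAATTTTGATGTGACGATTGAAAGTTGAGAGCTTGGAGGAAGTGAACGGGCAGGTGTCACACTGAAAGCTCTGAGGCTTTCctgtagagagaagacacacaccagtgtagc

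**Figure D1:**
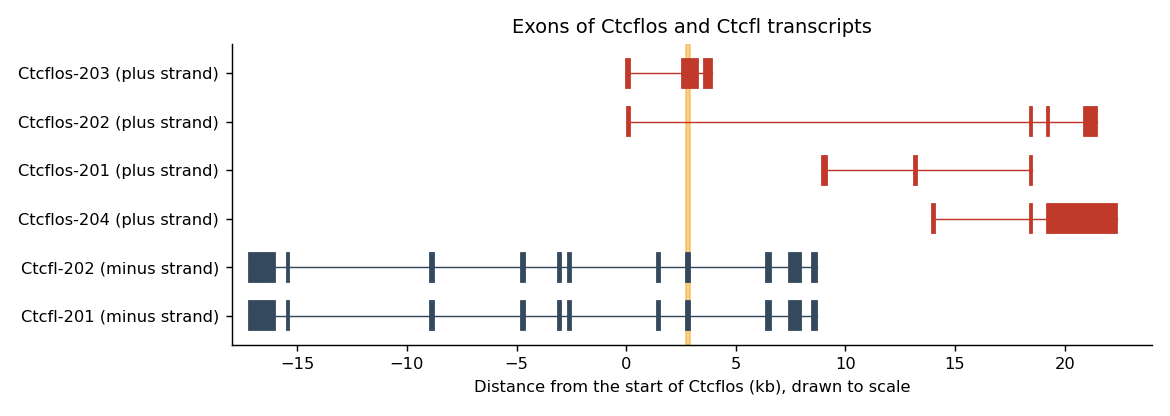
Exons (boxes) and introns (lines) of the 4 *Ctcflos* transcripts on the plus strand and the 2 *Ctcfl* transcripts on the minus strand, against distance from the start of *Ctcflos* in kb. The orange band marks the 171 shared bases, which lie in *Ctcflos-203* and in both *Ctcfl* transcripts, while the other *Ctcflos* transcripts have no exon there.

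RefSeq promoter sequences (GRCm38.p6, 250 bases before to 50 after a start) were matched for 4 of the 9 genes: *Rae1*, *Rbm38*, *Ctcflos* (the start of *Ctcflos-204*) and *Pck1*. They are shown for *Ctcflos*, *Pck1* and *Rae1*, the genes on which the results turn, with matches to 5 motifs on either strand in capitals. The motifs are the TATA box TATAAA, the CCAAT box CCAAT, the GC box GGGCGG, the nuclear receptor half-site AGGTCA and TTACGTCA, the form of the cAMP response element known from *Pck1*. They are held by 13.6%, 37.4%, 35.7%, 16.3% and 0.499% of the 32851 promoters of this length:
Ctcflos, chr2:173124499-173124798, plus strand: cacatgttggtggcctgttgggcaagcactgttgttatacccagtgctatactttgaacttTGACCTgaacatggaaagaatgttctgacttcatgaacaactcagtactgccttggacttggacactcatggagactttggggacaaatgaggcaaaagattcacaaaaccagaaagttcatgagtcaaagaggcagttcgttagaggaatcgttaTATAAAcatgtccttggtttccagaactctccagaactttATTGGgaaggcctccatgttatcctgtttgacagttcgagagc
Pck1, chr2:173152823-173153122, plus strand: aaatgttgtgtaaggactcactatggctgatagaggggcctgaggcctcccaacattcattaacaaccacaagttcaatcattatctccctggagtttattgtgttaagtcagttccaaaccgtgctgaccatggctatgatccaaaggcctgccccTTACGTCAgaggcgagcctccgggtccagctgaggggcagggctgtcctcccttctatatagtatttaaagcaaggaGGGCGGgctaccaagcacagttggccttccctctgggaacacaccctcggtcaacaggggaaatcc
Rae1, chr2:172999867-173000166, plus strand: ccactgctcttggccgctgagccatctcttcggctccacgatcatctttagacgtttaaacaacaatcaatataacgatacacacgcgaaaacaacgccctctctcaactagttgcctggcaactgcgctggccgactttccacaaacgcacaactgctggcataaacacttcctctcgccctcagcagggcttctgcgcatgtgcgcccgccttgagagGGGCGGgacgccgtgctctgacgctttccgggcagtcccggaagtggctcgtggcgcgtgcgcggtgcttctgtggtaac
The *Ctcflos* window holds a TATA box 33 bases before the start, an inverted half-site 189 bases before it and an inverted CCAAT box just after it. The *Pck1* window holds TTACGTCA 93 bases before the start and a GC box at 16 bases. The *Rae1* window holds a GC box at 30 bases, and the *Rbm38* window none of the 5 motifs. GC content was 43.3% for *Ctcflos*, 52.0% for *Pck1*, 58.0% for *Rae1* and 63.7% for *Rbm38*, against a median of 52.7% over all promoters. Such matches describe the letters and are no evidence of binding.

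*Ctcflos* was lower in every KD library than in every control. It had 0.0969, 0.0705 and 0.210 RPKM in KD replicates 1 to 3, against 0.748, 0.751 and 0.840 RPKM in NC ctrl replicates 1 to 3. KD replicate 3 retained most, 26.9% of the control mean, against 12.4% and 9.04% in replicates 1 and 2. The group means were 0.126 ± 0.0739 RPKM and 0.780 ± 0.0525 RPKM (SD, n = 3), a log2 fold change of -0.66 (standard error 0.0840, limma adjusted p = 0.025 in the fit of all genes, of which 2.76% were called lower). The exact permutation p was 0.1, the smallest that 3 against 3 libraries allow. With any library but KD replicate 3 left out, the adjusted p from limma was 0.083 to 0.15, at fold changes of -0.68 to -0.63. The call stood without KD replicate 3 (limma adjusted p = 0.012) and was lost with the replicate number as a block (0.11).

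Low values were not limited to 1 accession of *Ctcflos*. All 6 were lower in KD without overlap, where 17.6% of all accessions were, and stood at 6.62% to 19.2% of the control mean. Of them 5 were called, all lower, where 11.6% of all accessions were called and 7.2% called lower. *Ctcflos-203*, the target, rested on 9, 5 and 28 reads in KD and 107, 125 and 102 reads in NC ctrl (limma adjusted p = 0.014). *Ctcflos-204*, recovered from a RefSeq accession of the same length, rested on 30, 27 and 31 reads against 187, 172 and 150 (limma adjusted p = 0.012). *Ctcflos-202*, which shares its first exon with *Ctcflos-203* and 747 bases with *Ctcflos-204*, had 13, 8 and 12 reads against 70, 64 and 49. The shortest transcript, *Ctcflos-201*, had 0, 0 and 1 read against 5, 2 and 10 and did not pass the test (limma adjusted p = 0.14). The target transcript thus was not the sole one that was low: 14.1% of the control mean was left of *Ctcflos-203* and 18.2% of *Ctcflos-204*. Within libraries, the ratio of *Ctcflos-203* to *Ctcflos-204* RPKM was 0.843, 0.520 and 2.54 in KD and 1.61, 2.04 and 1.91 in controls, so that the excess of KD replicate 3 lay in the target transcript. When KD replicate 1 or 2 or NC ctrl replicate 1 or 3 was left out, 0 accessions of these genes were called.

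**Figure D2:**
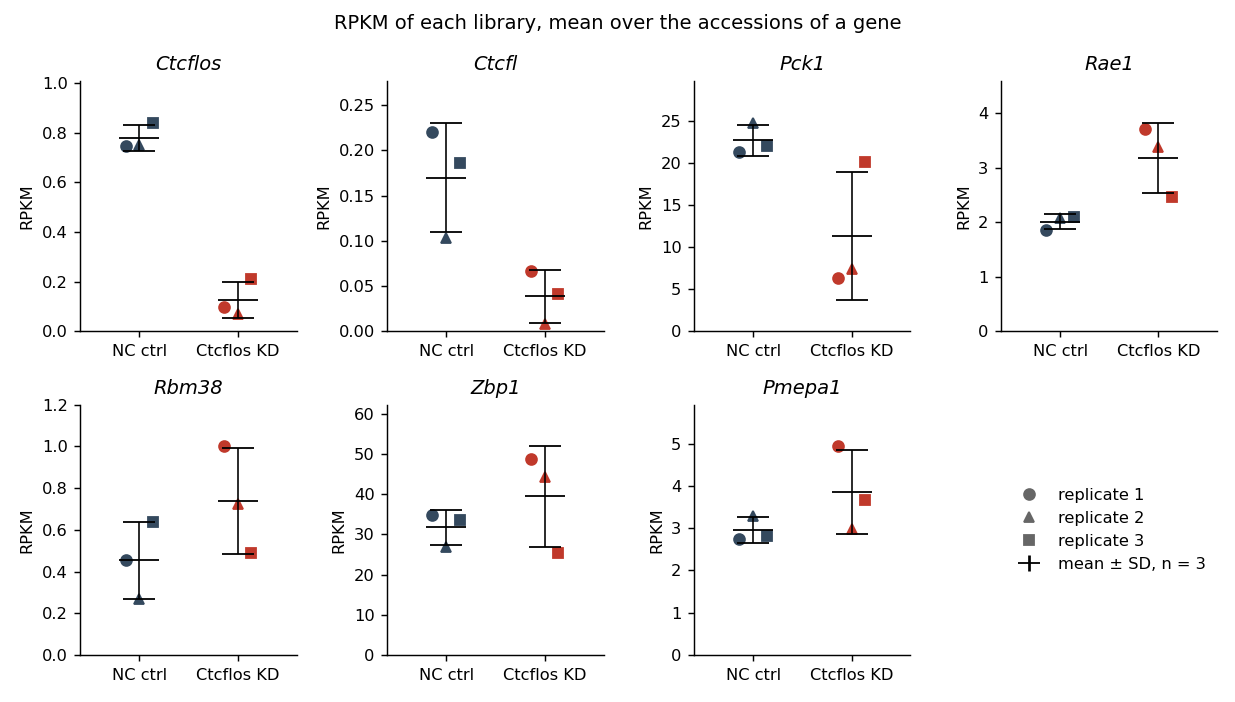
RPKM of the 7 expressed genes in each library, with NC ctrl in dark and *Ctcflos* KD in red, marker shapes for replicates, and bars for mean ± SD (n = 3), each panel on its own axis from 0. *Ctcflos*, *Ctcfl* and *Pck1* of KD lie below all controls and *Rae1* above them, and KD replicate 3 of *Pck1* lies next to the controls at 20.1 RPKM.

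*Ctcfl* was barely detected. Its values were 0.0663, 0.00834 and 0.0412 RPKM in KD and 0.221, 0.103 and 0.187 RPKM in NC ctrl, which are 16, 2 and 8 reads against 55, 26 and 37 on *Ctcfl-202*. The groups did not overlap, as in 28.1% of all genes above 0, and the KD mean was 22.7% of the control mean. The log2 fold change of -0.17 missed the threshold (95% interval -0.27 to -0.07, limma adjusted p = 0.068 in the fit of all genes), and the exact permutation p was 0.1. Its 2 accessions, with almost the same read numbers, were called when accessions were tested (limma adjusted p = 0.046 for each), but 0 of 2 without KD replicate 3. The kit marks strand, but no source used here says that reads were assigned by it. *Ctcfl* reads therefore cannot be told apart from *Ctcflos* reads over the 171 shared bases and over any intronic sequence that overlaps, and the part of these reads in the *Ctcfl* values was not tested.

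*Pck1* was far below the controls in 2 KD libraries and just under them in the third. It had 6.35, 7.46 and 20.1 RPKM in KD replicates 1 to 3 and 21.3, 24.8 and 22.1 RPKM in NC ctrl. The KD values did not overlap with the controls, as in 44.8% of the genes of the fit (21.9% with KD lower), but replicate 3 had 88.4% of the control mean, where replicates 1 and 2 had 27.9% and 32.8%. With means of 11.3 ± 7.64 and 22.7 ± 1.85 RPKM (SD, n = 3), the log2 fold change of -1.11 narrowly missed the threshold (95% interval -1.92 to -0.30, limma adjusted p = 0.053, exact permutation p = 0.1). Without KD replicate 3 it was -1.59 (limma adjusted p = 2.7e-04), in a fit in which 40.9% of the genes were called. Read support was not the limit: *Pck1-202* rested on 1559, 1962 and 4038 reads in KD and 5530, 6413 and 4562 in NC ctrl. The 5 accessions of *Pck1* had similar values, at 47.4% to 50.6% of the control mean, with 0 of 5 called. KD replicate 3 thus retained more *Ctcflos* and more *Pck1* than the other KD libraries. It also lay nearer to the controls over all genes, and no relation between both RNAs can be tested over 3 libraries.

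**Figure D3:**
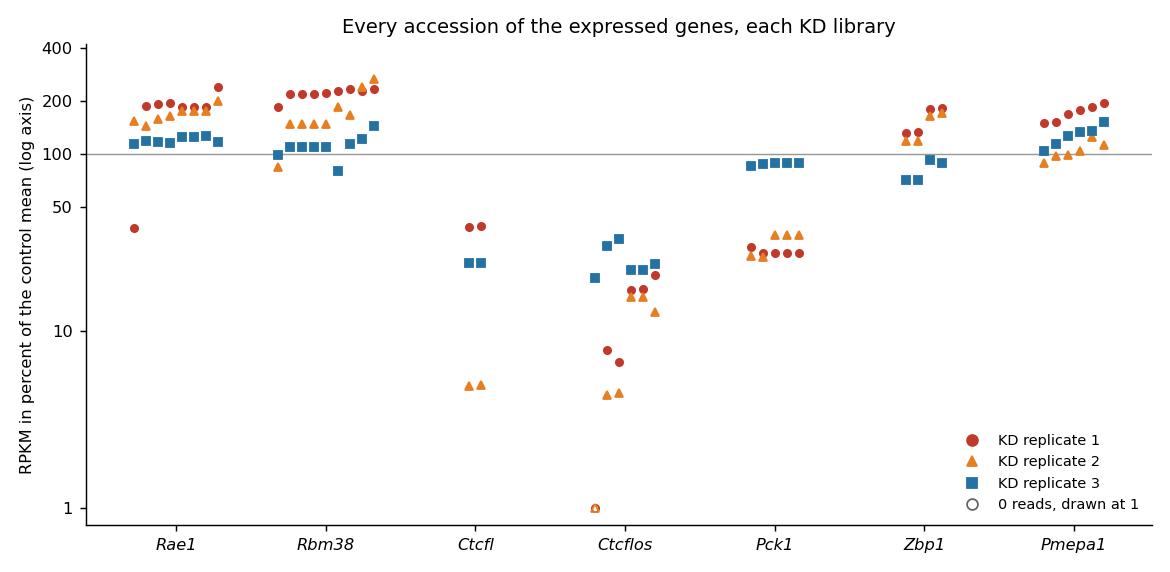
RPKM of every accession of the 7 expressed genes in each KD library, in percent of the control mean of that accession, on a log axis with a line at 100%. Open symbols at 1 stand for 0 reads. All accessions of *Ctcflos*, *Ctcfl* and *Pck1* lie under the line in all KD libraries, and KD replicate 3 (squares) is the closest to the line for *Pck1*.

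In the pathway of *Pck1*, several genes fell. Of 13 measured genes that supply or use glycerol 3-phosphate, 6 were called lower and 0 higher, where 12.4% of all genes were called lower. The median log2 fold change of the list was -0.47, against 0.03 over all 11701 genes. *Gpd1*, the glycerol 3-phosphate dehydrogenase and the most abundant of the list, had 244, 249 and 334 RPKM in KD and 462, 387 and 445 in NC ctrl (log2 fold change -0.66, limma adjusted p = 0.027). *Gpam*, the first acyltransferase of triglyceride synthesis, fell by 0.86 on the log2 scale (10.1, 9.58 and 13.6 against 20.2, 21.3 and 20.7 RPKM, limma adjusted p = 0.0085). *Lpin1*, a phosphatidate phosphatase, fell by 0.74, *Dgat1*, which adds the last acyl chain, by 0.66, and *Aqp7*, a channel for glycerol, by 0.48, each without overlap between groups. *Pck2*, the mitochondrial paralog, had 6.46 against 7.80 RPKM (log2 fold change -0.24, limma adjusted p = 0.14). The count of the list was 9 without KD replicate 3, in a fit with 40.9% of all genes called, and 1 to 5 with another library left out.

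Of 14 PPARG targets of fat cells, 2 were called lower, *Cebpa* and *Ucp1*, and 0 higher. That is 14.3%, where 12.4% of all genes were called lower and 24% in either direction. *Cebpa*, a transcription factor of adipogenesis, had 32.8, 31.8 and 63.9 RPKM in KD and 78.2, 75.4 and 74.1 in NC ctrl (log2 fold change -0.89, limma adjusted p = 0.038). Like *Pck1*, its KD replicate 3 lay nearest to the controls. *Ucp1*, the uncoupling protein, had 23.6, 26.1 and 12.4 RPKM against 67.0, 27.1 and 57.3, so that its lowest value was in KD replicate 3 and its highest KD value was just under a control (log2 fold change -1.21, limma adjusted p = 0.048). *Fabp4*, the most abundant, had 3291 against 4041 RPKM (limma adjusted p = 0.16). The median of the list was -0.35. The summed adipocyte markers, all 7 of which are in this list, moved with these genes and with *Pck1*, and their part in the result was not tested.

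*Rae1*, a nuclear pore and mRNA export factor 111 kb upstream of the *Ctcflos* start (chr2:173000117-173015739, plus strand), was the single neighbour called. It had 3.70, 3.38 and 2.46 RPKM in KD and 1.85, 2.07 and 2.10 RPKM in NC ctrl. Every KD library was above every control, as for 22.9% of the genes of the fit, with KD replicate 3 the closest. The means were 3.18 ± 0.646 and 2.01 ± 0.137 RPKM (SD, n = 3), or 158% of control, with a log2 fold change of 0.46 (standard error 0.127, limma adjusted p = 0.035, exact permutation p = 0.1). This is 1 of 4 neighbours with a mean of at least 1 RPKM, in a table in which 24% of such genes were called, and so not more than the background. *Rae1-201*, by a RefSeq accession of its length, rested on 793, 742 and 432 reads against 397, 450 and 390. As single accessions 0 of 8 were called, with adjusted p-values from 0.051 upwards (limma), and 6 of 8 were higher in KD without overlap, where 16.4% of all accessions were. Without KD replicate 3, 7 of 8 accessions were called, in a fit with 20.3% called. The call of the gene was lost in the unfiltered fit (limma adjusted p = 0.088), with the replicate number as a block (0.070) and when any library but KD replicate 3 was left out (0.081 to 0.13), and it was kept without KD replicate 3 (0.0023).

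In a list of nuclear pore, mRNA export and related genes around *Rae1*, the called genes had the same direction as *Rae1*. Of 11 measured genes with a mean of 1 RPKM or more, 3 were called higher and 0 lower. That is 27.3%, where 11.5% of all genes were called higher and 24% in either direction, so the count is near the latter share. *Nup153*, a nucleoporin of the nuclear basket, had 9.79, 8.48 and 6.98 RPKM in KD and 4.69, 5.24 and 4.44 in NC ctrl (log2 fold change 0.69, limma adjusted p = 0.012). *Nxf1*, the mRNA export receptor, was higher by 0.34 and *Bub3*, the spindle checkpoint relative of RAE1, by 0.39. *Nup98*, the binding partner of RAE1, had 3.66 against 3.77 RPKM (limma adjusted p = 0.81), and *Ranbp2*, the most abundant, 15.3 against 14.2 RPKM (limma adjusted p = 0.49). The median of the list was 0.24. With 1 library left out, 0 to 5 genes of the list were called.

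*Rbm38*, an RNA-binding protein and p53 target 90.3 kb upstream (chr2:173020498-173034734, plus strand), did not pass the test. It had 1.00, 0.723 and 0.491 RPKM in KD and 0.457, 0.268 and 0.635 RPKM in NC ctrl, and the groups overlapped. The log2 fold change was 0.26 (95% interval -0.09 to 0.60, limma adjusted p = 0.35 in the fit of all genes, exact permutation p = 0.2). Over its 9 accessions the KD mean was 123% to 215% of control, and 0 of 9 were called. KD replicate 1 was the highest library, and replicate 3 lay within the controls.

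Of 13 genes of the p53 list around *Rbm38* with a mean of at least 1 RPKM, 5 were called higher and 0 lower (median log2 fold change 0.34). That is 38.5%, where 11.5% of all genes were called higher and 24% in either direction. *Trp53inp1*, a p53 target of stress and autophagy, had 25.4, 25.5 and 18.2 RPKM in KD and 9.42, 7.79 and 8.20 in NC ctrl (log2 fold change 1.33, limma adjusted p = 0.0035). *Mdm2*, the ubiquitin ligase of p53, had 17.9, 18.2 and 13.2 against 8.43, 8.49 and 8.95 RPKM (0.85, limma adjusted p = 0.0083). *Eda2r* was higher by 0.53, *Trp53* itself by 0.51 and *Bax*, a mediator of apoptosis, by 0.34. *Cdkn1a*, the cell cycle inhibitor p21, had 18.2 against 11.6 RPKM and did not pass (limma adjusted p = 0.13), nor did the most abundant gene, *Ccng1*, at 113 against 92.4 RPKM (limma adjusted p = 0.19). The paralog *Rbm24* was at 0.0164 RPKM in KD replicate 1 and at 0 in the other libraries.

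*Zbp1*, a sensor of Z-form nucleic acids that triggers necroptosis (chr2:173206612-173218923, minus strand), was the most abundant of the 9 genes. It had 48.6, 44.4 and 25.2 RPKM in KD and 34.9, 26.7 and 33.7 RPKM in NC ctrl. KD replicates 1 and 2 were above all controls and KD replicate 3 was below them. The log2 fold change of 0.26 did not pass the test (95% interval -0.30 to 0.81, limma adjusted p = 0.45, exact permutation p = 0.4), and it was 0.54 without KD replicate 3 (limma adjusted p = 0.023). Its 4 accessions fell into pairs: the RefSeq mRNA of one pair had 147% of the control mean and that of the other 108%. Of the 4, 0 were called, where 11.6% of all accessions were, and 2 without KD replicate 3, in a fit with 20.3% called. The ratio of these RefSeq mRNAs within a library was 1.21, 1.25 and 1.10 in KD and 0.826, 1.02 and 0.828 in NC ctrl, without overlap. How often such ratios of other accession pairs do not overlap was not worked out. Which exons differ between these mRNAs was not analysed here.

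Around *Zbp1*, 19 genes of nucleic acid sensing and necroptosis were measured, of which 2 were called higher and 3 lower (median log2 fold change 0.25). These 5 are 26.3% of the list, near the 24% called over all genes. *Mlkl*, the executor of necroptosis, fell by 0.70 on the log2 scale (limma adjusted p = 0.022) and *Eif2ak2*, the RNA-activated kinase PKR, by 0.40. *Mb21d1*, the DNA sensor cGAS, was higher by 0.53 and *Casp8*, the protease that restrains necroptosis, by 0.35. *Ripk3*, the kinase that ZBP1 engages, had 7.50 against 8.09 RPKM (limma adjusted p = 0.49), and *Isg15*, the most abundant, 467 against 366 RPKM (limma adjusted p = 0.43). Without KD replicate 3, 14 of the 19 were called, in a fit in which 40.9% of all genes were called.

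*Pmepa1*, a membrane protein that holds back SMAD signalling (chr2:173224458-173276533, minus strand), had 4.93, 2.97 and 3.67 RPKM in KD and 2.75, 3.30 and 2.81 RPKM in NC ctrl. The groups overlapped through KD replicate 2. The log2 fold change was 0.28 (95% interval -0.07 to 0.63, limma adjusted p = 0.20, exact permutation p = 0.2). Of its 6 accessions 0 were called, where 11.6% of all accessions were, and 2 were higher in KD without overlap, where 16.4% of all were.

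Of 16 genes of the TGF-beta pathway around it with a mean of at least 1 RPKM, 3 were called higher and 7 lower, at a median of -0.11. Over all genes 11.5% were called higher and 12.4% lower. *Smad7*, the inhibitory SMAD and like *Pmepa1* a target of the pathway, had 4.29, 3.81 and 2.92 RPKM in KD and 1.15, 1.43 and 1.28 in NC ctrl (log2 fold change 1.02, limma adjusted p = 0.0044). *Skil*, a transcriptional corepressor of SMADs, was higher by 0.64, and *Ctgf*, a matricellular target, by 1.55 with overlap between groups. The receptors were lower: *Tgfbr3* by 1.05, *Tgfbr2* by 0.73 and *Tgfbr1* by 0.52 on the log2 scale. *Smurf1*, a ubiquitin ligase of SMADs and receptors, had 2.01, 1.67 and 2.19 RPKM against 4.82, 4.22 and 4.87 (log2 fold change -0.93, limma adjusted p = 0.0033). *Smurf2*, *Ldlrad4*, a relative of *Pmepa1*, and *Smad2* were also called lower, by 0.45, 0.34 and 0.31.

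*Bmp7* (chr2:172868012-172940321, minus strand) and *Spo11* (chr2:172977700-172993576, plus strand) were listed at 0 in all 6 libraries, on 3 and 6 accessions, and could not be tested. For *Bmp7-201* a count of 0 allows up to 3 reads a library, or 0.0135 RPKM in the shallowest, and for *Spo11-204* 0.0136 RPKM, as counting error only. These limits take reads as independent and would be higher if mates of a pair were counted singly. At this depth RNA was not detected of *Bmp7*, a ligand of brown adipogenesis, nor of *Spo11*, the meiotic endonuclease.

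Receivers and antagonists of BMP signals were measured although *Bmp7* was not detected. Of 15 genes of the BMP list with a mean of at least 1 RPKM, 2 were called higher and 3 lower (median log2 fold change -0.16), or 33.3% against 24% of all genes. The antagonist *Bmper* fell by 0.84 on the log2 scale (4.75, 5.04 and 5.65 against 9.43, 9.82 and 10.8 RPKM, limma adjusted p = 0.0046), as did *Chrdl1*, by 0.52. *Fst*, the activin antagonist follistatin, was higher by 0.57 and the pseudoreceptor *Bambi* by 0.62. *Smad1*, a transducer of BMP receptors, fell by 0.34, whereas the target *Id3*, the most abundant, had 36.1 against 42.4 RPKM (limma adjusted p = 0.21). The ligands *Bmp2*, *Bmp4* and *Bmp6* were low, with a highest group mean of 0.237 RPKM (*Bmp4* in NC ctrl).

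Of 13 genes listed for meiosis and germ line around *Spo11* and *Ctcfl*, 3 had a mean of at least 1 RPKM. *Ctcf*, the ubiquitous paralog of *Ctcfl*, had 7.27, 6.69 and 6.06 RPKM in KD and 4.52, 4.74 and 4.44 in NC ctrl (log2 fold change 0.46, limma adjusted p = 0.017). *Prdm9*, the histone methyltransferase that places meiotic recombination, had 2.63, 2.34 and 0.837 against 0.622, 0.468 and 0.441 RPKM (0.90, limma adjusted p = 0.030). *Sycp3* of the synaptonemal complex had 1.23 against 2.32 RPKM (limma adjusted p = 0.29), and the other 10 genes, such as *Dmc1*, *Stra8* and *Hormad1*, were at or near 0.

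The number of called genes in these lists moved with single libraries, as it did over all genes. With 1 library left out it was 0 to 6 for PPARG targets, 1 to 9 for BMP, 3 to 11 for TGF-beta, 1 to 14 for nucleic acid sensing, 2 to 7 for p53 and 0 to 3 for meiosis. Each highest number came without KD replicate 3, in the fit with 40.9% of all genes called. Each lowest came without NC ctrl replicate 1 and also without NC ctrl replicate 3, among other libraries in some lists.

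**Figure D4:**
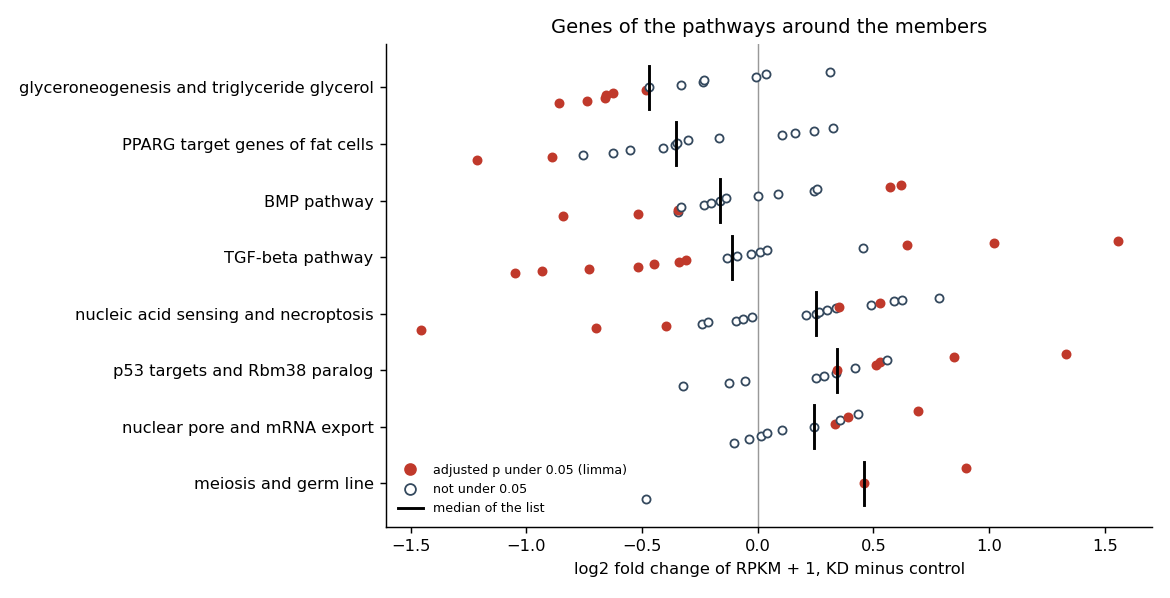
Log2 fold change of RPKM + 1, KD minus control, of each gene with a mean of at least 1 RPKM in the 8 lists around the neighbours, with filled red points for an adjusted p under 0.05 (limma) and a bar for the median of a list. Called genes of glyceroneogenesis lie on the left, at -0.86 to -0.48, those of the p53 list on the right, at 0.34 to 1.33, and those of the TGF-beta list on both sides.

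Beyond these neighbours, 22 further genes of a list up to 1649.8 kb from *Ctcflos* were in the table, of which 13 had a mean of at least 1 RPKM. Of these 13, 2 were called, both lower, or 15.4%, where 24% of all genes and 26.5% of 705 other genes of chromosome 2 were called. *Vapb*, a tether of the endoplasmic reticulum 627 kb downstream (chr2:173737511-173784336, plus strand), had 5.52, 6.03 and 7.37 RPKM in KD and 12.2, 10.5 and 13.0 in NC ctrl. The groups did not overlap (log2 fold change -0.82, standard error 0.132, limma adjusted p = 0.0080, exact permutation p = 0.1). *Stx16*, a syntaxin of the trans-Golgi 965 kb downstream (chr2:174076308-174099771, plus strand), had 3.52, 3.36 and 4.38 against 5.39, 5.05 and 5.69 RPKM, or 69.8% (log2 fold change -0.43, limma adjusted p = 0.029). *Vapb* was called whichever library was left out (limma adjusted p 0.0012 to 0.048), and *Stx16* only without KD replicate 3 (0.0040). *Cstf1*, a polyadenylation factor 740.1 kb upstream, had 9.27, 10.2 and 7.94 against 7.29, 7.08 and 7.27 RPKM without passing (log2 fold change 0.30, limma adjusted p = 0.088). The groups of 5 of the 13 did not overlap, against 49.5% of the other genes of chromosome 2, and the median log2 fold change of the 13 was -0.18. *Rab22a* and *Gnas*, at 8.25 against 7.15 and 41.7 against 33.3 RPKM, did not pass (adjusted p = 0.39 and 0.23 from limma). Between *Pmepa1* and *Rab22a*, *Ankrd60* and 1700021F07Rik were at 0 in all libraries and *Ppp4r1l-ps*, a pseudogene, was at 0.114 against 0.257 RPKM (limma adjusted p = 0.076 in the fit of all genes). Without KD replicate 3, 9 genes of this list and 3 of the 8 neighbours (*Rae1*, *Pck1*, *Zbp1*) were called. In those fits 40.9% of all genes averaging 1 RPKM or more were called, and 11.6% of all genes above 0.

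**Figure D5:**
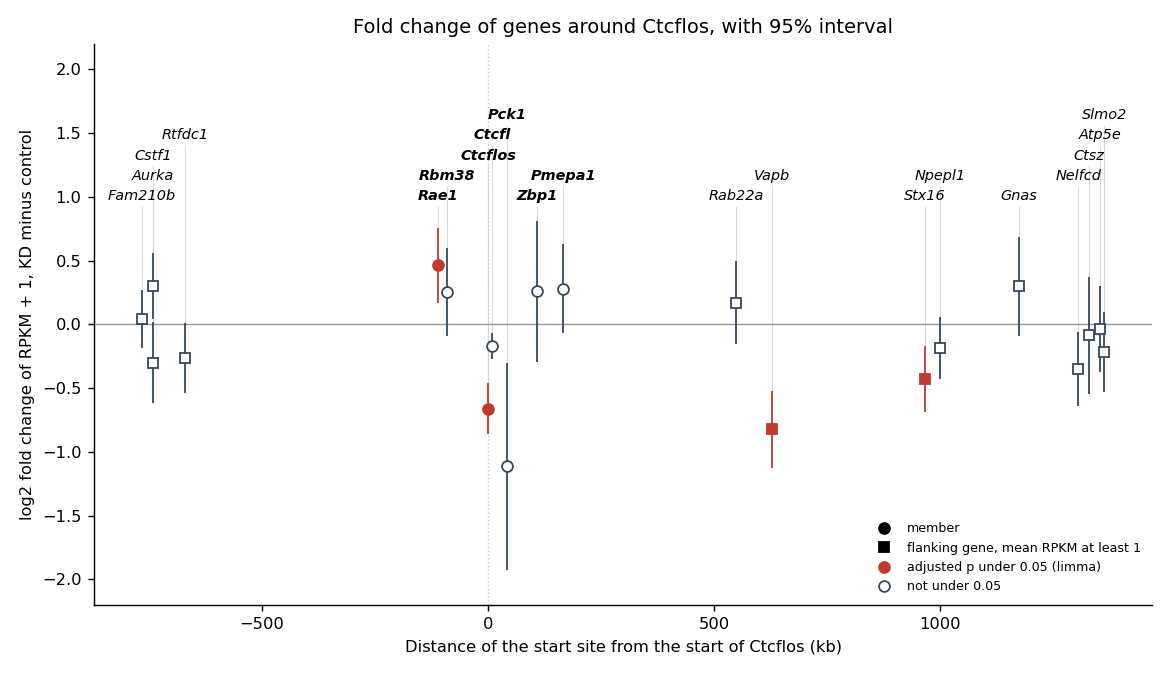
Log2 fold change of RPKM + 1, KD minus control, with its 95% interval, against the distance of each start site from the start of *Ctcflos* in kb, for the 7 expressed genes (circles, bold) and 13 flanking genes (squares). Filled red symbols, an adjusted p under 0.05 (limma), are *Ctcflos* and *Rae1* among the members and *Vapb* and *Stx16* far downstream.

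The order of the levels differed between the groups in 1 place. In NC ctrl the genes ranked *Zbp1* (31.7 ± 4.38 RPKM, SD, n = 3), *Pck1*, *Pmepa1* (2.95 ± 0.300), *Rae1*, *Ctcflos*, *Rbm38* (0.453 ± 0.183) and *Ctcfl* (0.170 ± 0.0607), and no neighbours in this order overlapped. In KD, *Rbm38* ranked above *Ctcflos*, and *Pmepa1* (3.86 ± 0.995 RPKM) and *Rae1* overlapped. RPKM is per length of transcript, but these levels are means over the accessions of a gene, so the order depends on which ones it has. By its RefSeq mRNA, *Rae1* had a mean of 3.25 RPKM in NC ctrl and 5.26 RPKM in KD. That was above the RefSeq mRNA of *Pmepa1*, at 2.75 and 3.82 RPKM.

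Genes with the most similar pattern were sought over the 6 libraries, by the mean absolute difference of log2(RPKM + 1) relative to the control mean. For *Ctcflos* these were *Xxylt1*, *Dis3l* and *Suv420h1*, at differences of 0.0251, 0.0267 and 0.0327, on chromosomes 16, 9 and 19. On this scale a low gene such as *Ctcflos* resembles genes with less than its relative decrease: *Xxylt1*, a xylosyltransferase, had 46.1% of control. For *Pck1* they were *Ffar2*, a receptor for short-chain fatty acids, *Ghr*, the growth hormone receptor, and *Esyt2*, an extended synaptotagmin, at differences of 0.0857, 0.152 and 0.175. *Ffar2* had 1.71, 2.77 and 6.90 RPKM in KD and 8.04, 8.59 and 8.36 in NC ctrl. That its KD replicate 3 lay nearest to the controls follows from the choice by likeness to *Pck1* and is no separate observation.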

How the data were processed

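Libraries were made from total RNA with a stranded TruSeq kit and sequenced paired-end at 150 bp. STAR is named for the splicing part of the study, and GRCm38 for that part and for the search for lncRNAs. How the deposited table was made, and whether reads were assigned by strand, is not given in the sources used here. The authors deposited RPKM per transcript accession, in 168326 lines with decimal commas and 0 further value columns. 305 exact repeats were removed, and 168021 lines were used. Replicates were not pooled.

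Members and gene lists were chosen with earlier results of these data known. Gene values are the mean RPKM over the accessions of a symbol. log2(RPKM + 1) was tested with limma-trend (limma 3.58.1, R 4.3.3), KD against control, two-sided, with Benjamini-Hochberg adjustment over all genes averaging 1 RPKM or more over the 6 libraries. Members with a lower mean come from a fit of all genes above 0, and accessions from a fit of all accessions. Since the values are RPKM, tests for counts were not used. Single genes were also compared with exact two-sided permutation tests. Depth was recovered because low RPKM of Ensembl transcripts are whole multiples of 1 read at their Gencode vM21 length: 96.0% to 96.7% of low values were whole within 0.1 reads. Accessions without such a length were given reads where those of a Gencode transcript of the gene made all 6 values whole. 3 reads were taken as the limit of a count of 0, which covers counting error only and takes reads as independent.

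Named were all members, flanking genes, and of each list up to 4 called genes without overlap by smallest p and the most abundant gene. Further list genes in the text were chosen after their values were seen, as were the ratios between accessions. Simulated data were used to check the fit. Alternatives were a pseudocount of 0.1, no filter, median-of-ratios scaling, the replicate block, the accession with the highest mean, RefSeq accessions alone, no mean-variance trend, an adjusted p of 0.01, and leaving out each library. Python 3.11.15 and pandas 2.3.3 were used. The sequence of ASO1 is not printed, and single values of some list genes are not reported here.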

Additional observations from a re-analysis of the deposited data

How the results depend on the processing

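The direction of all 7 expressed members held under every alternative run. Under the replicate block *Ctcflos* stayed at -0.66 but lost its call (limma adjusted p = 0.11), and -0.66 also failed an adjusted p of 0.01. With 1 library left out its fold change ranged from -0.72 to -0.63. *Pck1* was called with the accession of the highest mean and with RefSeq accessions alone (both -1.10, adjusted p = 0.0495 and 0.046 from limma), and ranged from -1.59 to -0.83 with 1 library left out. Of 8 neighbours, 1 was called. That number was 0 without a filter, with the replicate block and at an adjusted p of 0.01, 2 with the accession of the highest mean and 3 with RefSeq accessions alone. It was 0 to 3 with 1 library left out. At an unadjusted p under 0.05, 3 neighbours (*Rae1*, *Pck1*, *Ctcfl*) passed in the reported fits. The share of all genes passing at that threshold was not worked out, so no excess among the neighbours can be read from this count. Even after adjustment, 24% of the genes averaging 1 RPKM or more and 4.71% of all genes above 0 were called. Of the flanking genes 2 were called, and 1 without a filter, with the block and at 0.01, 3 with RefSeq accessions alone, and 1 to 9 with 1 library left out. Of the 49 accessions of members 7 were called, 5 of *Ctcflos* and 2 of *Ctcfl*, where 11.6% of all accessions were called. That number was 0 with the block and at 0.01, 10 with a pseudocount of 0.1 and with median-of-ratios scaling, and 5 without the trend. It was 0 to 19 with 1 library left out. The highest number came without KD replicate 3 each time, where 40.9% of all genes averaging 1 RPKM or more and 20.3% of all accessions were called. The replicate numbers did not pair the libraries (correlations of deviations 0.287, -0.288 and -0.418), and the block changed the number of called genes from 2803 to 1671. Without a filter 1807 genes were called, at an adjusted p of 0.01 523, and with 1 library left out 423 to 4784.

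Uncalled flanking genes near 0 changed sign with 1 library left out. *Fam210b* ranged from -0.027 (without NC ctrl replicate 2) to 0.10 and *Fam209* from -0.012 (without KD replicate 1, and -0.0010 without NC ctrl replicate 1) to 0.14. *Ctsz* ranged from -0.20 to 0.14 (without KD replicate 3) and *Atp5e* from -0.17 to 0.064 (without NC ctrl replicate 1, and 0.035 without KD replicate 3). At a pseudocount of 0.1 the log2 fold changes were -2.01 for *Ctcflos* and -0.96 for *Ctcfl*. Depth limits *Ctcfl* and *Ctcflos-201*, which rest on few reads.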
